A study of Mus musculus with 3 samples.

Results

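The Snrpn to Ndn imprinted snoRNA domain of mouse chromosome 7 was examined in C2C12 cells, an established myoblast line of the C3H mouse strain, kept proliferating. It was defined as the interval from 66300000 to 69800000 of the mm9 build, and every call with its midpoint there was taken as a member. Of 59075 calls in all, 109 were members, made up of 52 among the 19549 KAP1 peaks and 57 among the 39526 H3K9me3 regions. Chromatin immunoprecipitation with sequencing was done with a homemade rabbit antibody against KAP1 in 1 library and with an antibody against trimethylated lysine 9 of histone H3 (H3K9me3) in another. The library made without antibody has no peak list used here. All libraries came from growing myoblasts, and no genotype, agent or dose differs between them. With 1 library per antibody there is no spread between replicates and no test. The intervals below cover counting error over calls only, and neighbouring calls are not independent.

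The domain holds genes that are active from only the father's or only the mother's copy. Snrpn (a spliceosomal Sm protein), Ndn (the MAGE family protein necdin), Magel2 (another MAGE family protein that works with ubiquitin ligases) and Mkrn3 (a makorin RING finger protein that restrains the onset of puberty) are active on the paternal copy. The long transcript that starts at Snrpn carries arrays of small nucleolar RNAs (snoRNAs) and runs toward Ube3a. Ube3a encodes a ubiquitin ligase that neurons make from the maternal copy. Loss of the paternal genes causes Prader-Willi syndrome in people and loss of maternal UBE3A causes Angelman syndrome. The imprinting control region lies at the start of Snrpn and carries DNA methylation on the maternal copy. KAP1 is a corepressor recruited to its sites by zinc finger proteins of the KRAB class, and it works with SETDB1, which makes H3K9me3. Among those proteins, ZFP57 recognises methylated TGCCGC and helps to keep the methylation of imprinting control regions.

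In the RefSeq gene table of the GRCm38.p6 build, the protein-coding neighbours in order were Atp10a, Ube3a, Snurf, Snrpn, Gm51483, Ndn, Magel2, Mkrn3 and Peg12. Between Ube3a and Snrpn that table lists 206 snoRNA genes, 134 before the noncoding gene Ipw and 72 between Ipw and Snrpn. Between Snrpn and Ndn it lists 0 snoRNA genes, 13 miRNA genes and 1 protein-coding gene. That build is not the one of the peak lists, so the table gives names and order only. In mm9 the positions used here are those given with the definition of the domain, Snrpn near 67.15 Mb and Ndn, Magel2 and Mkrn3 near 69.5 Mb, and they are approximate.

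The start shared by Snurf and Snrpn is shown because the control region begins there and the calls around it are described below. The sequence is from RefSeq on the minus strand of GRCm38.p6, chr7:60005150-60005449, and holds 250 bases before and 50 after the annotated start. Its position cannot be set against the mm9 positions of the calls. TGCCGC was searched on both strands, and capitals mark the match, which is to its reverse complement.
Snrpn: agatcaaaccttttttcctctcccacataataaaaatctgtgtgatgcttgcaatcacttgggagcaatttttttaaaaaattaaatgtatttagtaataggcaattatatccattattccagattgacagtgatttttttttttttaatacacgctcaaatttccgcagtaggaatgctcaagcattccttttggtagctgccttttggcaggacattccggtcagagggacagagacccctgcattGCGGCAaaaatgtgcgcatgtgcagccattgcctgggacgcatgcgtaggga
This was the only match in the 8 promoters that RefSeq gives for Ube3a, Snrpn, Ndn, Magel2 and Mkrn3, and the other 3 Snrpn starts held none. Of all 32851 promoters of the same length, 11.6% held a match. A match describes the letters and does not show binding.

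KAP1 peaks stood close together in the domain, mostly because of a single run of peaks before Snrpn. The domain held 14.9 KAP1 peaks per Mb (interval 11.1 to 19.5), against 7.57 over all chromosomes. When all chromosomes were tiled into 725 windows of 3.5 Mb, the domain's 52 peaks were more than the number in 97.0% of windows, whose median was 24. The run is part of how the domain was chosen, so this rank is a description. Without the run the domain held 32 peaks, 9.28 per Mb (interval 6.34 to 13.1), and 74.3% of windows held fewer. The 57 H3K9me3 regions, 16.3 per Mb (interval 12.3 to 21.1), stood near the 15.3 of all chromosomes, and 69.0% of windows held fewer. They covered 49.6 kb, against a median of 45.6 kb per window.

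**Figure D1:**
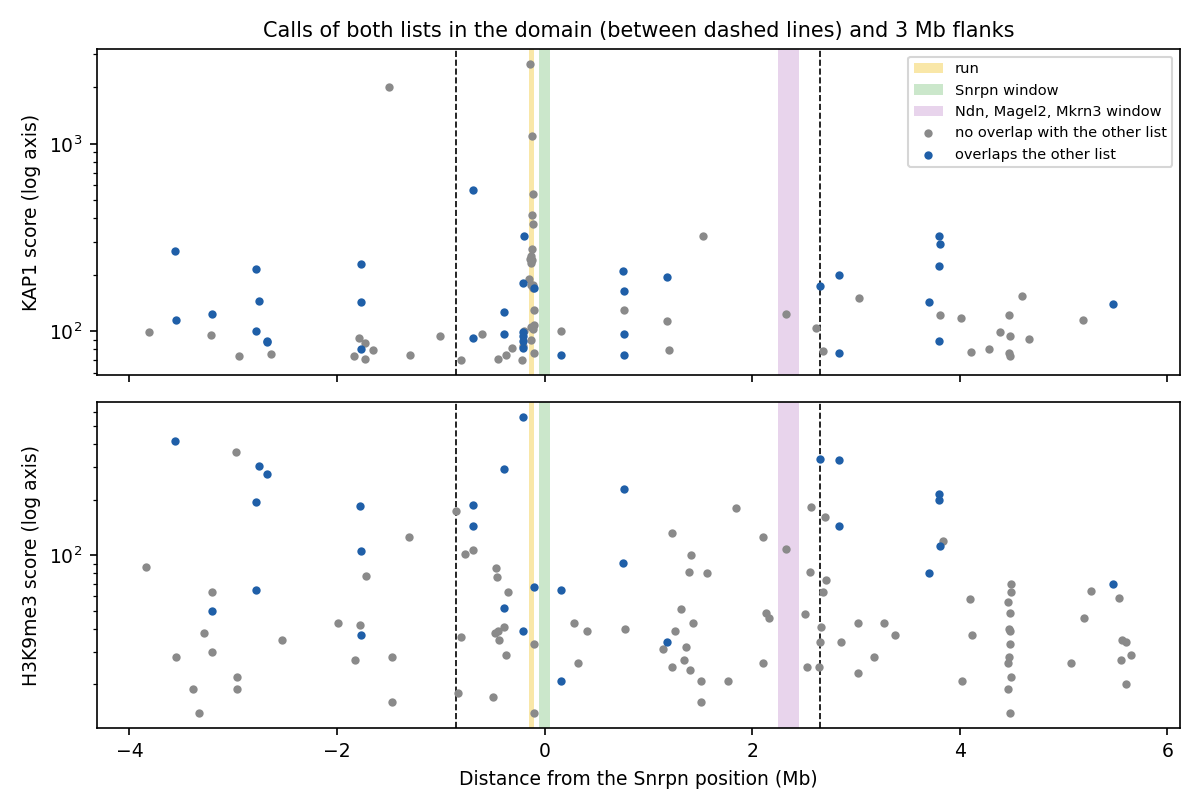
Score of each call (log axis) against its distance from the Snrpn position in Mb, KAP1 above and H3K9me3 below, for the domain and 3 Mb on either side. Blue points overlap a call of the other list and grey points do not. The highest KAP1 scores of the domain stand in the run, and no point of either list lies in the Snrpn window.

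Of the 52 KAP1 peaks, 17 overlapped an H3K9me3 region by at least 1 bp (32.7%, Wilson interval 21.5 to 46.2), beside 44.1% in the whole KAP1 list. Leaving out the run gave 16 of 32 (50.0%, interval 33.6 to 66.4), so the lower share of the domain went with the run. The run's few overlaps helped to choose it, so the higher share without it was set by that choice. Numbered H3K9me3 calls may also be missing beside the run, as described below. Among H3K9me3 regions, 12 of the 57 held a KAP1 peak (21.1%, interval 12.5 to 33.3), beside 15.4% in the whole list. Both intervals include the share of the whole list. The H3K9me3 regions of the domain were narrower than those of the list, with a median of 430 bp against 607 bp. Those of the 3 Mb flanks were narrow as well, with medians of 502 bp before and 464 bp after. The KAP1 peaks of the domain were wider than those of the list, with a median of 762.5 bp against 651 bp. Without the run the KAP1 median was 652 bp, so within the domain the greater width went with the run. The 3 Mb flanks, which do not hold the run, had KAP1 medians of 738 bp before and 756 bp after. A median above that of the list was thus not particular to the domain.

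Between 67.00 and 67.05 Mb, before Snrpn and on the side of the snoRNA arrays, stood a run of 20 KAP1 peaks. They spanned 46.8 kb from 67002173 to 67048947 and covered 80.1% of it. A further peak with its midpoint just past the limit, at 67050123 to 67050359 (score 76.1), belongs to the same chain when peaks no more than 10 kb apart are joined, which makes 21. The last peak inside the limit, from 67048654, scored 107. Consecutive midpoints lay a median of 1.90 kb apart (interquartile range 1.52 to 2.64, from 1.05 to 6.91 over 19 spacings). In the whole list the median spacing was 48.3 kb, and 16.6% of spacings were as short as the run's median. From edge to edge the peaks of the run were separated by a median of 253 bp, from 10 to 1940 bp, with 13 of 19 gaps under 500 bp.

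The run was led by a broad peak near its beginning. The peak from 67006328 to 67017482 spanned 11155 bp, ranked first in width among all 19549 KAP1 peaks, ahead of 10672 bp for the next. Its score of 2665 had rank 132 in the list. It made up 29.8% of the bases covered in the run. The peak from 67023786 to 67027610, 3825 bp wide, followed with a score of 1103. Next came 67035613 to 67037729 with a score of 541. The peaks from 67027762 and from 67033990 scored 416 and 371. These and the others of the run with a score above the list's median of 106.12 numbered 17 of 20. The score of a KAP1 peak is the authors' own, and no source used here states what it measures.

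The remaining peaks of the run scored from 89.3 to 273. Before the broad peak stood 67002173 to 67003821 (score 189) and 67003982 to 67006006 (score 242). Between the broad peak and the peak from 67023786, the peaks from 67017652, 67018522, 67019999, 67021446 and 67022222 scored 231, 252, 176, 89.3 and 106 in that order. The lowest score of the run, 89.3, thus stood between its highest-scoring peaks. After the latter, the peaks from 67030118 and 67031570 scored 241 and 273, and those from 67038689 and 67040239 scored 176 and 170.3. The last 4, from 67042365, 67044891, 67046823 and 67048654, scored 103, 130.1, 170.3 and 107.

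The run ended in narrower peaks. It was divided here after its last peak of at least 1 kb, so a lower width after that point follows from the division. The lower coverage goes in part with that width. The first 16 peaks, up to 67041527, had a median width of 1447.5 bp and covered 89.6% of their span. The last 4, all under 1 kb wide by this division, had a median width of 586 bp and covered 33.6% of theirs. Their spacings, 1.61 to 2.53 kb, lay within the range of the earlier ones. Score followed width in the run with a Spearman's rho of 0.817 over 20 peaks of the same library, and with 0.640 over the whole list.

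H3K9me3 calls touched only this last part. The peak from 67046823 to 67047568 held the region from 67046958 to 67047395 (score 67), which covered 58.7% of it. This was the 1 overlap among the 20 peaks (5.00%, interval 0.888 to 23.6), beside 44.1% in the whole KAP1 list. The count is part of how the run was chosen and its peaks nearly adjoin, so it is a description and the interval is no test. The other H3K9me3 regions within the run, from 67044433 to 67044628 (score 33) and from 67048284 to 67048352 (score 14), lay 262 bp and 301 bp from the nearest KAP1 peak. All 3 regions together covered 703 bp. Of the 20 KAP1 peaks, 12 lay more than 10 kb from any H3K9me3 region, and the first lay 40.6 kb away. None of the 16 earlier peaks overlapped a region.

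The names in the H3K9me3 list limit what this shows. Numbers in the names follow position on all 21 chromosomes of both lists, and some numbers are absent. Between the region that ends at 66947965 and the region that starts at 67044433, an interval of 96.5 kb that holds the first 17 peaks of the run, 29 consecutive numbers are absent. Over the 39505 pairs of neighbouring regions in the list, 88.4% have no number absent between them and 5 pairs, this one included, have 29 or more. Numbered H3K9me3 calls may thus have been left out in this interval, and the criterion is not given in the sources used here. The interval begins before the first peak of the run, so the names do not show whether the absent calls lay along the run. In the KAP1 names, 3 of the 24 numbers across the 21 chained peaks are absent.

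**Figure D2:**
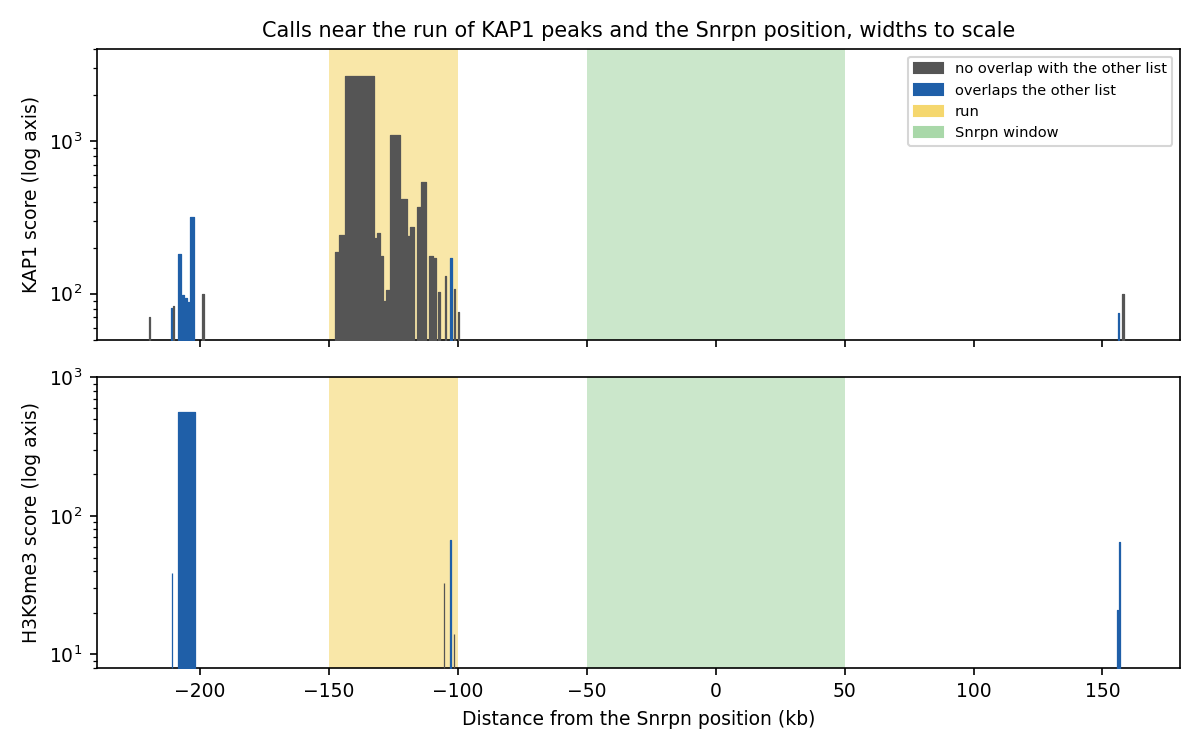
Calls from 240 kb before to 180 kb after the Snrpn position, drawn with their widths to scale and their score as height (log axis), KAP1 above and H3K9me3 below. The KAP1 peaks fill most of the run, where 3 narrow H3K9me3 regions stand near the end, and neither list has a call in the Snrpn window.

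Few groups of KAP1 peaks in the list were as large. Chaining at 10 kb gave 24 groups of 10 or more KAP1 peaks, and 5 of them, this run included, had 21 or more. With 78.2% of its 48.2 kb covered, the chained run had rank 5 in coverage among the 24, whose median was 38.5%. Its median spacing of 1.84 kb had rank 6 from the shortest. Its median score of 189 had rank 12 and its highest score rank 9. In 11 of the 24 groups no KAP1 peak overlapped H3K9me3, beside an overlap of 44.1% over the whole KAP1 list, so few overlaps were not particular to the run. Beside some of these groups H3K9me3 numbers are absent from the names as well, so calls may have been left out there too. Among the groups without overlap, those on chromosomes 5 and X had 24 to 28 numbers absent. The one on chromosome 6 had 1, and those on chromosomes 4, 9, 13 and 19 had 0.

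**Figure D3:**
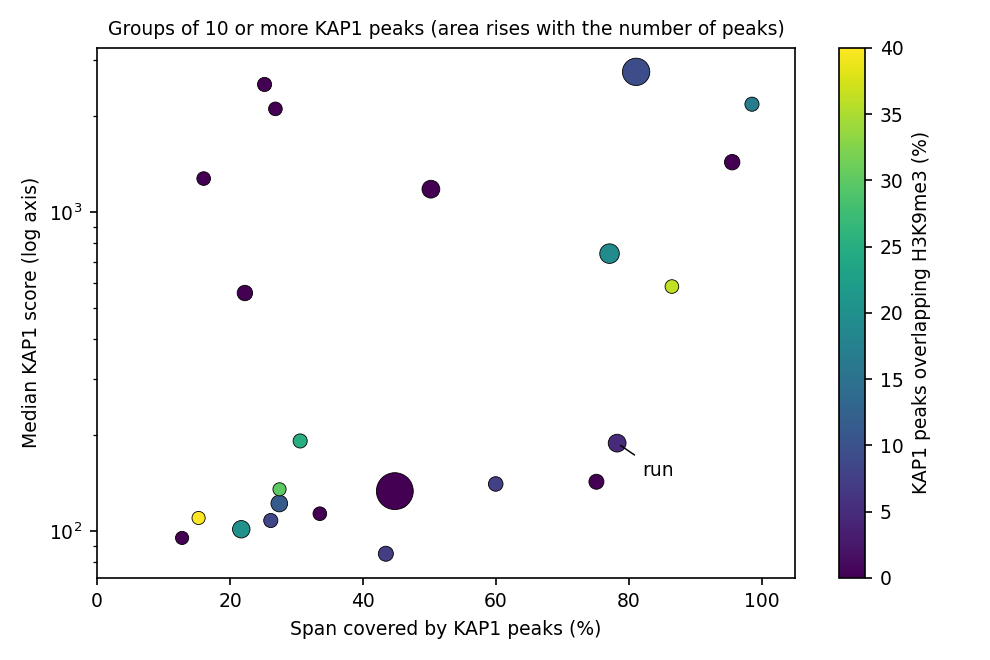
Median KAP1 score (log axis) against the percentage of the span covered by peaks for the 24 groups of 10 or more chained KAP1 peaks. Point area rises with the number of peaks and colour gives the percentage overlapping H3K9me3. The run stands at 78.2% covered and a median score of 189, with 1 of 21 peaks overlapping.

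At Snrpn neither list had a call. Within 50 kb on either side of 67.15 Mb, where the control region lies, there were 0 KAP1 peaks and 0 H3K9me3 regions, and a count of 0 allows up to 36.9 calls per Mb (exact Poisson, 95%). That limit is above the 7.57 KAP1 peaks and 15.3 H3K9me3 regions per Mb of all chromosomes, so the count alone does not set the window apart. The nearest KAP1 peaks ended 99.6 kb before the position, at 67050359, and began 155.9 kb after it, at 67305903. These left 255.5 kb without a KAP1 peak, and 17.2% of the gaps between neighbouring KAP1 peaks in the list were as long. For H3K9me3 the interval without a region was 257.4 kb, from 67048352 to 67305755, and 4.85% of the gaps in that list were as long. Across these intervals 2 KAP1 numbers and 3 H3K9me3 numbers are absent from the names, so calls there may have been left out too. Within the domain 6 gaps of the KAP1 list and 4 of the H3K9me3 list were at least as long, those over Snrpn included. The position of Snrpn is approximate, and the read signal at the control region was not analysed here.

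Before the run, on the side of Ube3a and the snoRNA arrays, KAP1 peaks that overlapped H3K9me3 were listed in several places. From 66300000 to 67.00 Mb there were 18 KAP1 peaks, 25.7 per Mb (interval 15.2 to 40.6), and 19 H3K9me3 regions, 27.1 per Mb (interval 16.3 to 42.4). Both intervals lie above the 7.57 and 15.3 of all chromosomes, so this segment was dense in both lists. Its calls stand partly in groups and its end was set by the run, so the intervals are no test. Of the 18 KAP1 peaks, 10 overlapped (55.6%, interval 33.7 to 75.4), and this interval includes the 44.1% of the whole KAP1 list. A group of 9 KAP1 peaks stood from 66930235 to 66951419, 50.8 kb before the run. Its scores ran from 70.5 to 320.2 with a median of 93.9, and its peaks covered 32.3% of its span. Of these 9 peaks, 6 overlapped H3K9me3. The 1 of 20 in the run is a value that helped to choose it. H3K9me3 numbers are also absent from the names in an interval that holds most of the run, so the difference was not tested.

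The broadest and highest-scoring H3K9me3 region of the domain lay under that group. It ran from 66941595 to 66947965, 6371 bp wide with a score of 561, and 98.8% of the list scored lower. The KAP1 peaks from 66941580, 66942980, 66944113, 66945179 and 66945992 lay in it, with scores of 181, 98.6, 93.9, 88.1 and 320.2. Of these, the first was covered by 98.5% and the others by 100%. The peak from 66938733 (score 81.0) overlapped a narrower region of 247 bp just before. The broadest H3K9me3 region of the domain thus held 5 KAP1 peaks, with scores from 88.1 to 320.2.

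Farther out, the highest KAP1 score of the domain outside the run, 568, belonged to the peak from 66464015 to 66466158. It was covered by 81.5% by the H3K9me3 region from 66464011 to 66465762, which had a score of 188, the highest of that list in the domain after 561, 292 and 230. The KAP1 peak beside it, from 66463079 (score 92.3), overlapped the preceding region by 21 bp. At 66754587 and 66757138 stood KAP1 peaks with scores of 126 and 96.1. The first was covered by 91.0%, and the other lay within the region from 66756344 to 66760174, whose score of 292 was second in the domain.

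In the stretch from 67.2 to 69.4 Mb, between Snrpn and Ndn, there were 11 KAP1 peaks. Their density of 5.00 per Mb was below the 7.57 of all chromosomes, with an interval (2.50 to 8.95) that includes it, and they covered 0.390% of the stretch against 0.572%. H3K9me3 regions numbered 29, 13.2 per Mb (interval 8.83 to 18.9), against 15.3 over all chromosomes. Of the 11 KAP1 peaks, 6 overlapped H3K9me3 (54.5%, interval 28.0 to 78.7), and the interval includes the 44.1% of the whole KAP1 list. Of the 29 regions, 5 held a KAP1 peak (17.2%, interval 7.60 to 34.5), near the 15.4% of the whole list.

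The KAP1 peaks of the stretch stood in few places. The first, from 67305903 (score 75.0), overlapped the H3K9me3 regions from 67305755 (score 21) and 67306319 (score 65), and another followed at 67307446 (score 100.3) without overlap. A group of 5 lay from 67908412 to 67914796. Its peaks scored 210.05, 129.9, 75.0, 96.1 and 165 in order of position, and 4 of them overlapped H3K9me3. The region from 67911930 to 67914649, with an H3K9me3 score of 230, next in the domain after 292, held 3 of them. The peak from 68327238 (score 196) overlapped a region of 383 bp, and those from 68333484 (score 113) and 68347388 (score 78.9) overlapped none. The last peak of the stretch, from 68679797 to 68680453, scored 323, the highest there, and lay 22.9 kb from the nearest H3K9me3 region.

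After it came the longest interval of the domain without a KAP1 peak, 799.0 kb up to 69479498, and 1.75% of the gaps in the list were as long. Across it 5 KAP1 numbers are absent from the names. H3K9me3 regions continued through it, among them 68989471 to 68991920 (score 180), which lay 309.0 kb from any KAP1 peak, and 69253455 to 69255369 (score 126). The longest interval of the domain without H3K9me3 lay earlier, 371.6 kb up to 68294257, with 0 numbers absent. Such lengths were not particular to the domain. The flank before it held a KAP1 gap of 801.7 kb, up to 65312757. For H3K9me3 there was a gap of 534.8 kb in that flank and one of 576.4 kb in the flank after.

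Around Ndn, Magel2 and Mkrn3 each list had 1 call and they did not overlap. Within 100 kb of 69.5 Mb the H3K9me3 region ran from 69474232 to 69475765 (score 108, width 1534 bp). The KAP1 peak followed 3.73 kb later, from 69479498 to 69480241 (score 124). Which of these genes lies nearest to them was not determined, since no mm9 annotation was used. From there to the end of the domain stood 1 KAP1 peak, from 69767132 (score 104), and 5 H3K9me3 regions. None of the 5 held KAP1, and the highest, 69712030 to 69714426, scored 182.

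In the flanks of 3 Mb the KAP1 density stood near that of the whole list. Each held 23 KAP1 peaks, 7.67 per Mb (interval 4.86 to 11.5), and the interval contains the 7.57 of all chromosomes. The overlap with H3K9me3 was 11 of 23 before the domain (47.8%, interval 29.2 to 67.0) and 9 of 23 after it (39.1%, interval 22.2 to 59.2). Both of these intervals include the 44.1% of the whole KAP1 list. H3K9me3 regions numbered 28 before and 44 after, 9.33 per Mb (interval 6.20 to 13.5) and 14.7 per Mb (interval 10.7 to 19.7). The interval of the flank before lies below the 15.3 of all chromosomes and includes the 10.9 of chromosome 7. An H3K9me3 region at 66298576 to 66300696 (score 173) straddled the first limit of the domain and was not a member, since its midpoint lay outside. Beyond the other limit were a KAP1 peak from 69801819 (score 173) and the H3K9me3 region from 69800964 (score 333) that it overlapped.

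In the flank before the domain the KAP1 peak from 65654341 to 65654974 scored 2011, ranked 217, with a width of 634 bp and 23.7 kb to the nearest H3K9me3 region. In width it was unlike the run's leading peak of 11155 bp. The next there, from 63591729 (score 269) and 65379758 (score 228), both overlapped H3K9me3, and the former lay in the flank's highest H3K9me3 region, 63591267 to 63596063 (score 419). The regions from 64175729 (score 364) and 64394846 (score 306) came next, and the former had no KAP1 peak within 29.7 kb. In the flank after the domain, the KAP1 peaks from 70949425 (score 321), 70953808 (score 291) and 70948597 (score 222) stood together and all overlapped H3K9me3. The H3K9me3 regions from 69984720 (score 329) and 70948550 (score 216) there held KAP1 as well.

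**Figure D4:**
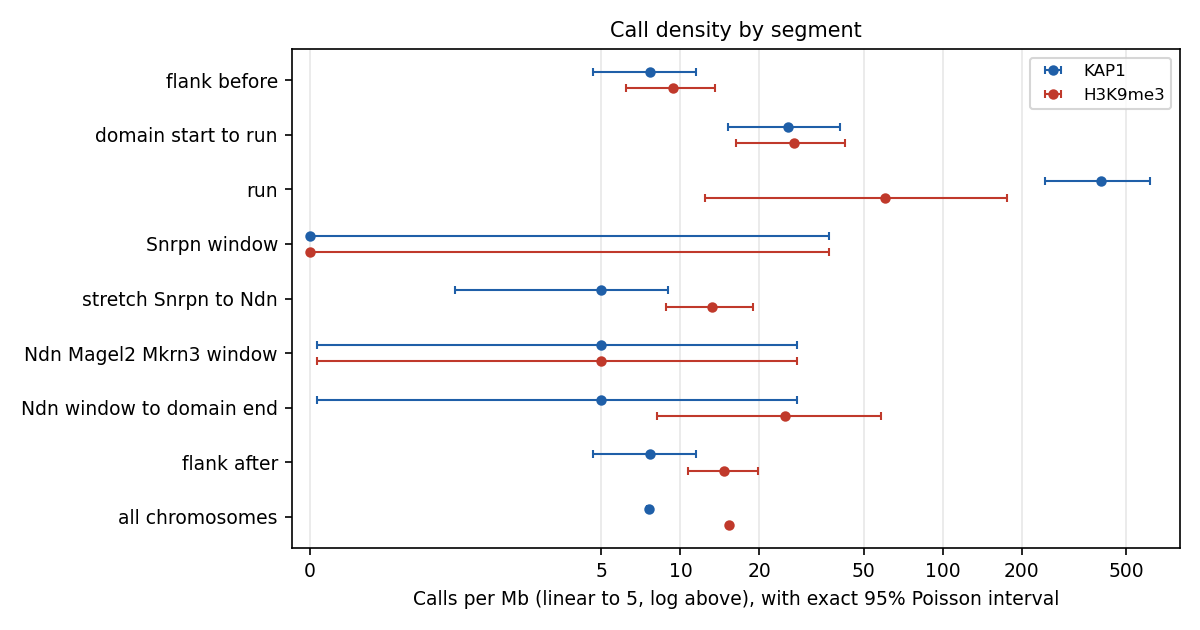
Calls per Mb in the flanks, the segments of the domain and all chromosomes, for KAP1 (blue) and H3K9me3 (red), with exact 95% Poisson intervals. The axis is linear to 5 and logarithmic above. The run holds 400.0 KAP1 peaks per Mb, a value that its choice fixes, and the Snrpn window holds 0 calls. Each flank holds 7.67 KAP1 peaks per Mb, near the 7.57 of all chromosomes, while the H3K9me3 interval of the flank before the domain lies below the 15.3 of all chromosomes.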

How the data were processed

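KAP1 and H3K9me3 libraries of proliferating C2C12 myoblasts were analysed as peak lists. The submitters' processing notes name Bowtie2 2.2.1 and the mm9 build. The score in each list is the authors' deposited value, at least 70 for KAP1 and 11 to 4360 for H3K9me3, and is comparable only within its list. For caller settings, control and filters, the sources used here give nothing, and read depth is unknown.

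Calls were assigned by midpoint, positions are counted from 1, and overlap needs 1 bp. Groups chain peaks no more than 10 kb apart. Shares have 95% Wilson and densities exact 95% Poisson intervals. Density over all chromosomes uses the span between first and last called base. Overlap and chaining were tested on simulated lists (Python 3.11.15, pandas 2.3.3, scipy 1.17.1).

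The domain, its members and the regions described were chosen with earlier results of these data known. Regions named are all peaks of the run, calls near Snrpn and Ndn, KAP1 peaks with H3K9me3, the 5 highest scores per list in the domain and 3 per flank. Other peaks are named from their position. No gene of the domain was placed on mm9, because no annotation of that build was used, and peak sequence was not analysed here.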

Additional observations from a re-analysis of the deposited data

How the results depend on the processing

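Read depth is unknown, so a region missing from a list sets no limit on signal, and numbers are absent from the names in both lists, so calls may have been left out. Of 35 alternative values, 20 stayed close (a count by a factor of 1.5, a share inside its interval, the spacing inside its interquartile range) and 15 did not. In the upper 50% by score the domain held 28 KAP1 peaks and 22 H3K9me3 regions, and the stretch from Snrpn to Ndn 6 and 9. Merging calls within 1 kb left 28 KAP1 peaks. Without the run, chosen after seeing the data, 32 KAP1 peaks remained and 50.0% of them overlapped H3K9me3. Within 10 kb 67.3% of KAP1 peaks had an H3K9me3 region and 40.4% of H3K9me3 regions a KAP1 peak. The share of H3K9me3 regions holding KAP1 was 12.3% with at least 50% of the peak covered, likewise 12.3% with the upper 50% of KAP1 peaks, and 36.4% in the upper 50% of H3K9me3 regions. Measured between peak edges the median spacing of the run was 0.253 kb. With 100 kb either side the Snrpn window held 1 KAP1 peak, the end of the run, and with 200 kb the Ndn window held 4 H3K9me3 regions. The score limit, the merging, the omission of the run and the window sizes change which calls are counted, and the others change the overlap criterion or the distance measured. Chaining at 5, 10 or 20 kb gave the run 21 peaks. No paired analysis was possible because each antibody has 1 library.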

Other observations

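Numbers absent from the H3K9me3 names were counted beside each of the 24 groups of 10 or more KAP1 peaks, over every pair of neighbouring H3K9me3 regions whose interval meets the group. The chained run before Snrpn had 33 absent, the second highest of the 24. The median was 3, and 9 groups had 0. Among the domain's H3K9me3 numbers, 45 of 102 are absent (44.1%), beside 15.7% in the whole list. Of the 45, 29 belong to the single interval that ends at 67044433, and from 67907938 to the end of the domain none is absent. For KAP1 38 of 90 are absent in the domain (42.2%), beside 46.3% in the whole list. The cause was not tested.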
